A study of Homo sapiens with 5 samples.

Results

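Poly(A) sites that the deposited annotation places in an exon, and not in the 3′ UTR of the transcript it names, were examined in genes that also carry at least 1 site in a 3′ UTR. The members were all rows that the deposited site table annotates as exon, outside the mitochondrial genome, whose gene has a 3′ UTR row in the same table. The rule used the annotation and no read values. It gave 1461 of the 29996 sites in the table, in 1054 of the 10671 genes with a 3′ UTR site, and is called the other-exon class here. For comparison, the table held 18491 3′ UTR sites and, in genes with a 3′ UTR site, 1943 intronic sites.

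The study asked what role CFIm25, the product of NUDT21, has in H9, an established human embryonic stem cell line. Its 3′ end sequencing tested whether altered poly(A) site choice accompanied the changes in growth and differentiation that the paper describes. PAS-seq libraries, which read the 3′ ends of polyadenylated RNA, were compared between 3 CFIm25 KO libraries and 2 control libraries. The CFIm25 KO cells were gene-edited with CRISPR/Cas9 and guides near the start codon, each grown from a single cell, and the labels call them KO although the study describes strongly reduced CFIm25 with short N-terminal deletions rather than a null. The controls, named control KO in the labels under the same CRISPR/Cas9 technique, are in the study's account clones of H9 cells given the empty vector. No treatment beyond the editing and its antibiotic selection was given. A difference between groups cannot be told apart from a difference between the clones, and the p-values measure only the spread between these 5 libraries.

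Poly(A) sites are made when the nascent transcript is cut and a tail of adenosines is added. The cleavage machinery reads a hexamer, most often AAUAAA or AUUAAA, a short distance before the cut, and CFIm25 binds UGUA elements before it. A site upstream of the 3′ UTR can truncate the coding sequence or end a transcript that has no reading frame, and CFIm25 is known for its effect on the choice between proximal and distal sites. Priming of the reverse transcription from oligo(dT) on a stretch of adenosines inside an RNA gives reads that look like a poly(A) site, so the bases just after a site are informative.

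Sequence around 6 sites is shown because the class falls into forms that can be read by eye. All runs are on the transcript strand, 5′ to 3′, from GENCODE v44 transcripts, with GRCh38 positions. The first 3 hold the 10 bases up to the site and the 20 bases after it, and capitals mark the first window of 10 bases with the most adenines. They are UBXN1 (chr11:62677805-62677834, minus strand), HSP90AB1 (chr6:44250348-44250377, plus strand) and RPL5 (chr1:92840607-92840636, plus strand).
UBXN1: agacaaagagttAGAGAAAAGAtcgagagg
HSP90AB1: gagaaagaagaggAAGATAAAGAtgatgaa
RPL5: aaagaagcccAAGAAAGAAGttaaaaagaa
The other 3 hold the 30 bases that end at the site, and capitals mark the hexamer AATAAA or ATTAAA. They are DNMT1 (chr19:10133346-10133375, minus strand), RBM39 (chr20:35703610-35703639, minus strand) and BBS7 (chr4:121861491-121861520, minus strand).
DNMT1: tttcttcaAATAAAtctctcctataaacca
RBM39: ccactcaAATAAAagtctcttaaaaaggcc
BBS7: gaaagcATTAAAgctatgtatgtcttttgt
In the first set the site sits before a purine-rich run with no signal hexamer in the 50 bases before it. In the second set a canonical hexamer stands close before the site.

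The libraries held 7783102, 7009418 and 5684809 reads in CFIm25 KO and 5203908 and 5243225 in control. Of these, 61001, 60984 and 52927 reads fell in other-exon sites in CFIm25 KO libraries and 49048 and 44727 in control libraries, that is 0.784 to 0.931% of a CFIm25 KO library and 0.853 to 0.943% of a control library. The median other-exon site had 15 to 17 reads in a CFIm25 KO library and 12 to 13 in a control library, so single sites were read shallowly. Levels are in CPM, counts per 1000000 reads of a library's table, and statements on which libraries were higher or lower refer to CPM even where raw reads are given. NUDT21 itself had 119.4, 112 and 116.5 CPM in CFIm25 KO and 205.6 and 198 CPM in control, and all CFIm25 KO libraries were below both controls, although a 3′ tag does not read the edited codons. All 12 listed stem cell markers were in the table, with summed levels of 6538 to 7150 CPM in CFIm25 KO and 5485 to 7268 CPM in control. Among them, LIN28A had 668.7 CPM in control replicate 2, against 2309 CPM in control replicate 1 and 1738 to 2401 CPM in CFIm25 KO. The pluripotency factor ZFP42 had 0, 0 and 0.176 CPM in CFIm25 KO against 8.07 and 8.39 CPM in control. Of the lists for other cell types, 2 of 6 neural and 2 of 6 mesoderm symbols were in the table, where the mesoderm list counts T and TBXT, 2 names of 1 gene. So were 1 of 5 endoderm, 4 of 6 fibroblast and feeder and 2 of 5 trophoblast markers. Their summed levels were 87.2 to 181 CPM in CFIm25 KO and 61.6 to 71.9 CPM in control for neural markers and 12.8 to 36.4 CPM in CFIm25 KO and 31.7 to 32.5 CPM in control for mesoderm. They were 1.67 to 4.22 CPM in CFIm25 KO and 2.88 to 3.62 CPM in control for endoderm, 154.5 to 321.9 CPM in CFIm25 KO and 230.2 to 233.3 CPM in control for fibroblast, and 20.7 to 52.6 CPM in CFIm25 KO and 34.5 to 36.1 CPM in control for trophoblast. SIX3, a neural factor, stood at 101.1 CPM in CFIm25 KO replicate 2 and at 0.769 to 5.4 CPM in the other libraries, and whether such cells bear on the results below was not tested.

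Most other-exon sites lay before the gene's 3′ UTR sites, in transcripts of several kinds. Of the 1461 sites, 1288 (88.2%) were upstream of every 3′ UTR site of their gene, 82 were between them and 91 (6.23%) were downstream of them all. The distance to the nearest 3′ UTR site had a median of 12301 bp, with quartiles of 3506 and 34011 bp. The annotated transcript was protein coding for 698 sites (47.8%), a retained-intron transcript for 372 (25.5%) and a coding-gene transcript with no defined reading frame for 301 (20.6%). By position in that transcript, 673 sites (46.1%) were in coding sequence, another 673 were in an exon of a transcript without one, 48 were 5′ of the coding sequence and 13 were 3′ of it, and 54 could not be placed. A total of 333 sites (22.8%) were within 24 bp of an annotated transcript end, and 181 were in the 3′ UTR of another transcript of the gene. Either held for 447 sites (30.6%), so the class mixes annotated ends of short transcripts with sites inside exons.

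Signal hexamers and TGTA were less frequent around other-exon sites than around the 3′ UTR sites of the same table, and adenine stretches were more frequent, as shares of sites with no test. AATAAA or ATTAAA was present in the 50 bases before 352 of 1372 other-exon sites with that sequence (25.7%), against 13022 of 17196 3′ UTR sites (75.7%). AATAAA alone was before 266 of them (19.4%), against 10103 3′ UTR sites (58.7%). TGTA, the DNA form of the CFIm25 element, was in the 100 bases before 380 of 1339 other-exon sites (28.4%) and 9692 of 17195 3′ UTR sites (56.4%). The searches used the transcript strand, and a match is not evidence that a factor binds. The 20 bases after the site held 6 adenines in a row or 7 in a window of 10, called A-rich here, at 663 of 1206 other-exon sites (55%) and 646 of 9846 3′ UTR sites (6.56%). Only sites followed by at least 20 bases of their own transcript were counted, so sites nearer to that transcript's end have no A-rich value. The mean number of adenines in those 20 bases was 10 at other-exon sites and 5.23 at 3′ UTR sites.

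**Figure D1:**
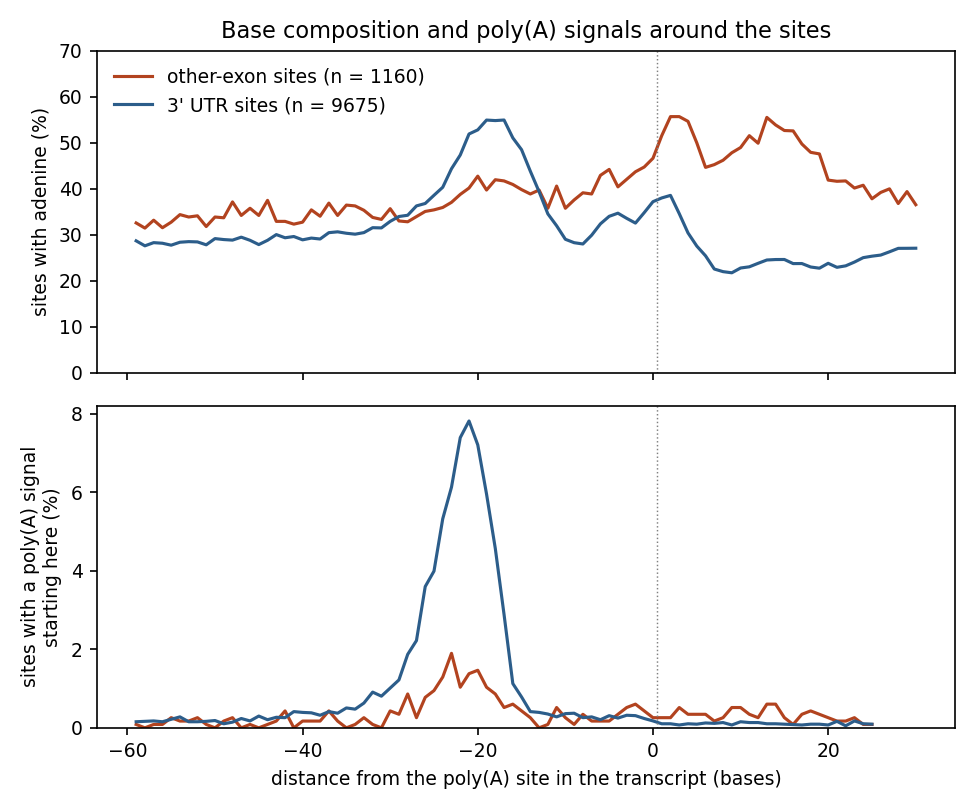
Share of sites with a hexamer start (AATAAA or ATTAAA) and share of adenines by distance from the poly(A) site in bases, for other-exon and 3′ UTR sites. The hexamer peak reaches 1.9% of other-exon sites at -23 and 7.81% of 3′ UTR sites at -21, and after the site the adenine share is 41.9 to 55.7% at other-exon sites and 21.8 to 38.6% at 3′ UTR sites over positions 1 to 20.

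The number of adenines in the first 10 bases after the site had an abrupt edge. Of 1237 other-exon sites, 306 had 5 adenines, 405 (32.7%) had 6, 120 (9.7%) had 7, 36 had 8 and none had 10. Among 10385 3′ UTR sites, 555 (5.34%) had 6 and 124 (1.19%) had 7. The study states that internal priming was removed, and its rule is not given in the sources used here. Sites with 7 or more adenines were more frequent just before an exon end, where the genome after the site is an intron and the transcript continues into the next exon. They were 57 of 167 sites (34.1%) within 15 bases of an exon end and 100 of 1048 sites (9.54%) farther from it.

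**Figure D2:**
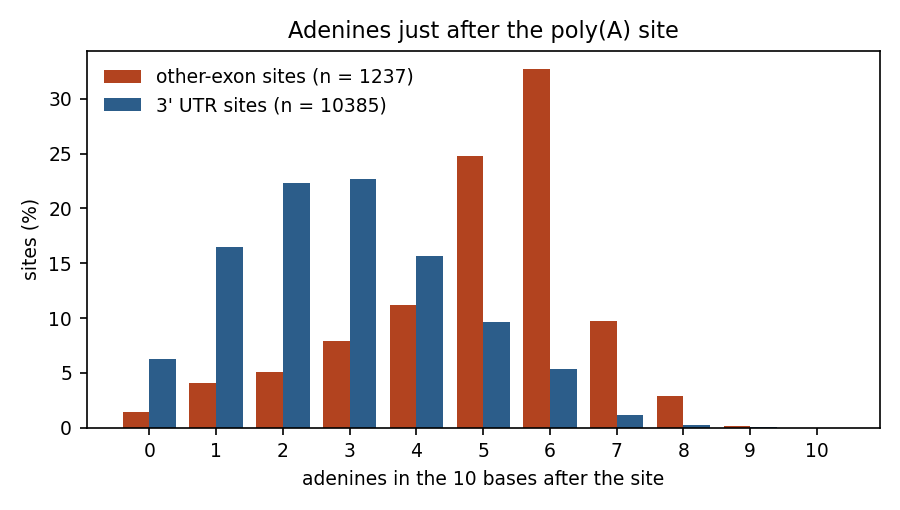
Number of adenines in the 10 bases after the site, as percent of sites, for 1237 other-exon and 10385 3′ UTR sites with that sequence. Other-exon sites rise to 32.7% at 6 adenines and drop to 9.7% at 7, while 3′ UTR sites are most frequent at 2 to 3.

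Hexamers and adenine runs were largely at different sites. Of 1179 sites with both windows, 56 (4.75%) had a hexamer and were A-rich, 156 (13.2%) had a hexamer only, 591 (50.1%) were A-rich only and 376 (31.9%) had neither. Within 24 bp of a transcript end, 178 of 323 sites (55.1%) had a hexamer, and away from ends 174 of 1049 (16.6%) had one. A-rich were 60 of 133 sites (45.1%) within 24 bp of an end and 603 of 1073 (56.2%) away from ends. The 133 leave out the sites with fewer than 20 bases to the end of their own transcript, so they are not the same sites as the 323. The sites in coding sequence carried a hexamer at 80 of 659 (12.1%) and were A-rich at 424 of 652 (65%). The sites downstream of all 3′ UTR sites were the closest to the 3′ UTR sites in these shares, with a hexamer at 67 of 89 (75.3%) and TGTA at 61.4%. An A-rich stretch was at 1 of the 30 (3.33%) that were followed by 20 bases of their transcript.

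Most other-exon sites were minor products of their gene, and a few were the main one. The median site held 6.27% of the reads of its gene (quartiles 2.14 and 16.4%), and its mean level had a median of 2.36 CPM. Only 167 sites averaged 10 CPM or more and 7 averaged 100 CPM or more, and the 8 most abundant sites held 44523 of the 268687 reads of the class (16.6%). At 70 sites (4.79%) the site held over 50% of the gene's reads. Of these 70, 35 (50%) were at a transcript end, 23 (32.9%) were downstream of all 3′ UTR sites and 37 of 67 (55.2%) had a hexamer, against 298 of 1391 (21.4%), 68 of 1391 (4.89%) and 315 of 1305 (24.1%) for the other members.

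The most abundant site was in HSP90AB1, which encodes an abundant cytosolic HSP90 chaperone, in coding exon 6 of 12 (chr6:44250357). It had 276.5, 363.7 and 334.8 CPM in CFIm25 KO and 371.5 and 347.7 CPM in control, and the groups overlapped. Its reads were 15.9% of the gene's, and the purine-rich run after it is printed above. DNMT1, the maintenance DNA methyltransferase, had 208.9, 239 and 229.2 CPM in CFIm25 KO and 227.3 and 243.7 CPM in control at chr19:10133346. The deposited annotation places it in the last exon of a retained-intron transcript, 39764 bp downstream of the nearest site annotated as 3′ UTR. The same position is also inside the 3′ UTR of another transcript of the gene. The DNMT1 site held 94.6 to 96.2% of the site and 3′ UTR reads in CFIm25 KO and 94 to 94.2% in control. The sites annotated as 3′ UTR thus had few reads in every library, 65 to 79, which does not mean that transcripts with a 3′ UTR were rare. The ribosomal protein gene RPL5 had 139.9, 204 and 179.4 CPM in CFIm25 KO and 183.9 and 167.1 CPM in control, at 7.58% of the gene's reads. The levels overlapped at DNMT1 and RPL5 as well.

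The splicing factor RBM39 had 153.3, 175.3 and 132.8 CPM in CFIm25 KO and 151.6 and 154.5 CPM in control, at 60.3% of its gene. CBX3, a heterochromatin protein of the HP1 family, had 112.9, 182.2 and 147.8 CPM in CFIm25 KO and 130.1 and 132.6 CPM in control, in a coding exon with 35.2% of the gene's reads. At RBM39 and CBX3 both controls lay within the range of the CFIm25 KO libraries. EIF3E, a subunit of the translation initiation factor eIF3, had 222.7, 178.5 and 184.7 CPM in CFIm25 KO and 228.5 and 235.4 CPM in control, at 87.7% of its gene. All CFIm25 KO libraries were below both controls at EIF3E, with a log2 difference of -0.22 (SE 0.13, edgeR adjusted p 0.723). YARS, a tyrosyl-tRNA synthetase gene, had 106.3, 91.3 and 99.9 CPM in CFIm25 KO and 95.3 and 111.2 CPM in control, and ARPC1A, an Arp2/3 complex subunit, had 102.1, 111.7 and 86.5 CPM in CFIm25 KO and 95.3 and 84.9 CPM in control. Both sites were at the end of a retained-intron transcript with AATAAA before them, 441 and 173 bp downstream of the last 3′ UTR site, and also inside the 3′ UTR of another transcript, and the groups overlapped at both. The RBM39 and EIF3E sites were likewise inside the 3′ UTR of another transcript of their gene.

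Among sites of at least 5 CPM, the largest shares of the gene's reads were at ARPC1A (97.8%), POLE (96.2%), CADM4 (93.8%), BBS7 (93.6%), RECQL5 (89.7%), RXRA (89.4%), SHQ1 (88.3%) and EIF3E (87.7%). The sites of ARPC1A, RXRA, SHQ1 and EIF3E were also inside the 3′ UTR of another transcript of the gene. The sites of POLE, CADM4, BBS7 and RECQL5 were not. POLE, the catalytic subunit of DNA polymerase epsilon, had 30.2, 31.2 and 28.1 CPM in CFIm25 KO and 29.8 and 24.6 CPM in control at chr12:132623760. The nuclear receptor RXRA had 41.2, 44.8 and 32.2 CPM in CFIm25 KO and 38.4 and 36 CPM in control, at an annotated end 3804 bp downstream of its 3′ UTR sites. BBS7, a subunit of the BBSome that serves cilia, had 36.9, 30.3 and 24.8 CPM in CFIm25 KO and 33.2 and 28.4 CPM in control, 37021 bp before its 3′ UTR sites, at no annotated end, after the ATTAAA printed above. The groups overlapped at all of the 8 except EIF3E, given above, and SHQ1, a snoRNP assembly factor, with 25.6, 28.5 and 26.2 CPM in CFIm25 KO and 24 and 25 CPM in control. All CFIm25 KO libraries were above both controls at SHQ1, which did not pass the site-level test (log2 difference 0.16, SE 0.18, edgeR adjusted p 0.874).

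Of the 1054 genes, 821 (77.9%) held 1 other-exon site and 18 held 5 or more. CENPF, a kinetochore protein gene, EIF3A and EIF5B, both for translation initiation, held 8 each, and L1TD1, an RNA-binding protein of pluripotent cells, and ZC3H13, a subunit of the m6A writer complex, held 7 each. All 8 sites in EIF5B were coding and A-rich with no hexamer. Their summed reads were 52.9, 64.5 and 59.6% of the gene's other-exon and 3′ UTR reads in CFIm25 KO and 69.1 and 61.6% in control. The sum over L1TD1 was 85, 88.5 and 86.6% in CFIm25 KO and 83.9 and 87% in control, with 6 of 7 sites coding and 4 of 7 A-rich. CENPF had 13.4, 14.1 and 20.2% in CFIm25 KO and 19.1 and 16.5% in control, EIF3A had 22.7, 29.6 and 29% in CFIm25 KO and 33.4 and 29.3% in control, and ZC3H13 had 27.9, 28.2 and 38.1% in CFIm25 KO and 33.5 and 31.1% in control. The ranges of the groups overlapped in each of these genes. Sites of 1 gene share their transcripts and are not independent.

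No difference in the summed use of the class passed the test. As percent of the other-exon and 3′ UTR reads of their genes, other-exon reads were 5.04, 5.77 and 6.38% in CFIm25 KO and 6.09 and 5.66% in control. The means were 5.73 ± 0.673% (SD, n = 3) in CFIm25 KO and 5.87 ± 0.301% (SD, n = 2) in control, a difference of -0.14 points (exact two-sided permutation test, p 0.8, adjusted over 3 measures 1, smallest possible p 0.1). The lowest and highest values were both CFIm25 KO libraries, replicates 1 and 3, and the 2 controls lay between them. Without CFIm25 KO replicate 1 the difference was 0.20 points, and without control replicate 1 it was 0.07 points. Intronic sites, counted in the same way in genes with a 3′ UTR site, held 7.47, 7.36 and 7.99% in CFIm25 KO and 7.76 and 7.47% in control (exact permutation test, p 1, adjusted 1), and this difference also changed sign when single libraries were left out. The log2 ratio of the other-exon to the intronic share differed by -0.04 between groups (exact permutation test, p 1, adjusted 1).

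**Figure D3:**
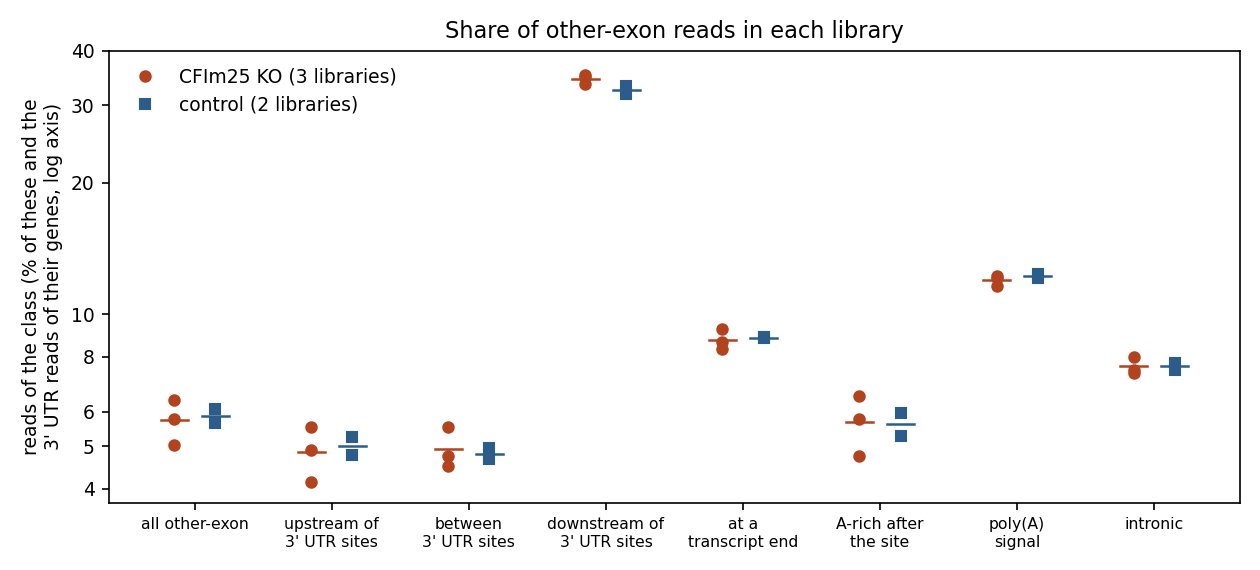
Share of other-exon reads in the other-exon and 3′ UTR reads of their genes, in percent on a log axis, for the class and 6 of its subclasses, and the same share for intronic sites, with 1 point per library and a line at the group mean. Among the classes drawn, only the sites downstream of all 3′ UTR sites show no overlap, with 33.5 to 35.2% in CFIm25 KO and 31.8 to 33.2% in control.

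The same share was taken in 9 subclasses, and none differed after adjustment (adjusted p 1 in each, exact permutation tests). Sites upstream of all 3′ UTR sites held 4.13, 4.89 and 5.53% in CFIm25 KO and 5.25 and 4.78% in control. Sites at transcript ends held 8.35, 8.65 and 9.25% in CFIm25 KO and 8.87 and 8.84% in control, and sites away from ends held 3.84, 4.63 and 5.22% in CFIm25 KO and 4.91 and 4.42% in control. In each of these the CFIm25 KO libraries lay on both sides of the controls. Sites with a hexamer held 11.6, 12.1 and 12.2% in CFIm25 KO and 12.1 and 12.4% in control, and A-rich sites held 4.76, 5.76 and 6.52% in CFIm25 KO and 5.97 and 5.29% in control. The 91 sites downstream of all 3′ UTR sites held 33.5, 34.9 and 35.2% in CFIm25 KO and 31.8 and 33.2% in control, a difference of 2.05 points with no overlap (exact permutation p 0.2, adjusted 1). Without DNMT1, the largest of them, the values were 30.2, 31 and 31.2% in CFIm25 KO and 28.3 and 29.3% in control (exact permutation p 0.1, the smallest possible).

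At the level of single sites, no other-exon site was called. In the edgeR quasi-likelihood test 1071 members could be tested and 0 had an adjusted p under 0.05, against 0.081% of all 24687 nuclear sites tested. At an unadjusted p under 0.05 there were 99 members (9.24%), against 8.12% of all sites, with 45 higher in CFIm25 KO (4.2%, background 4.12%) and 54 lower (5.04%, background 4%). The groups did not overlap in scaled CPM at 269 members (25.1%), against 25.9% of all sites. The log2 differences had a median of -0.01 (0.01 over all sites), with 10% below -0.66 and 10% above 0.71, and their median SE was 0.43, against 0.34 over all sites. DESeq2's Wald test called 2 members (0.186%, against 0.222% of all sites it tested), KMT2A (adjusted p 0.0401) and EIF3C (adjusted p 0.0475). Leaving out 1 library in edgeR called 10 members (0.935%, against 1.28% of all sites) without CFIm25 KO replicate 3. Among them were KMT2A, UBXN1, PARP1, SRSF11, EIF3C and STRBP (adjusted p 7.32e-05, 0.0197, 0.0227, 0.0279, 0.0315 and 0.0472, over 5.99e-05 to 0.657 across the alternatives with at least 2 libraries in each group). In that fit, leaving out 1 library also called SELENOP, a second HSP90AB1 site, TOP1 and NECTIN1 (edgeR adjusted p 0.000219, 0.00673, 0.0265 and 0.0364), named after their values were seen. It called 2 without CFIm25 KO replicate 2 (PLCB2 and USP48, both named after their values were seen, 0.202% against 0.14% of all sites), 1 without control replicate 2 (NCL, 0.072% against 0.087%) and 0 otherwise.

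The members with the smallest p at the site level showed the size of what was near the threshold, and they were named after their values were seen. EIF3C, a subunit of eIF3, had 230, 167 and 169 reads in CFIm25 KO and 77 and 74 in control in coding exon 4 of 6 (chr16:28714347), with all CFIm25 KO libraries above both controls. The log2 difference was 0.97 (SE 0.19, edgeR adjusted p 0.115), and over 10 alternatives the adjusted p was 0.0162 to 0.962. Its near-identical copy EIF3CL had 216, 158 and 152 reads in CFIm25 KO and 82 and 79 in control (chr16:28400956), and because 1 alignment per read was kept, reads of the copies cannot be told apart. NDUFAF5, a mitochondrial complex I assembly factor, had 7, 13 and 7 reads in CFIm25 KO and 29 and 27 in control, with a log2 difference of -1.96 (SE 0.42, edgeR adjusted p 0.154). Every CFIm25 KO library was below both controls there.

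GIGYF2, a translational repressor, had 68, 79 and 74 reads in CFIm25 KO and 25 and 25 in control (log2 difference 1.23, SE 0.29, edgeR adjusted p 0.198). The arginine methyltransferase gene PRMT2 had 212, 258 and 227 reads in CFIm25 KO and 89 and 110 in control at chr21:46636546, 1 base before an exon end (0.90, SE 0.22, edgeR adjusted p 0.209). Both were higher in each CFIm25 KO library than in either control. STRBP, an RNA-binding protein gene, had 219, 251 and 185 reads in CFIm25 KO and 282 and 290 in control in its first exon, 5′ of the coding sequence (-0.73, SE 0.17, edgeR adjusted p 0.179), with all CFIm25 KO libraries below. UBXN1 was also among the members with the smallest p, with a site-level log2 difference of -3.33 (SE 0.66, edgeR adjusted p 0.115). The 3′ UTR reads of these genes enter only in the next comparison, where UBXN1 passed the threshold and the other members named here did not.

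Use of a site relative to the 3′ UTR sites of its own gene was tested in 1 edgeR model over both counts of each library, which removes changes in the level of the gene. Of 1048 other-exon members tested, 1 was called, in UBXN1, against 0.0879% of the 2276 exon and intron sites tested. At an unadjusted p under 0.05 there were 71 members (6.77%, background 8.22%), 32 higher in CFIm25 KO (3.05%, background 4.35%) and 39 lower (3.72%, background 3.87%). The median log2 difference was -0.01, against 0.0004 over all sites tested, and 39 members were above 1 and 49 below -1.

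The called site was in UBXN1, which encodes a ubiquitin-binding partner of the VCP ATPase. It lies at chr11:62677825 on the minus strand, in exon 5 of 5 of a retained-intron transcript, 20 bases before that transcript's end and 1325 bp before the nearest 3′ UTR site. It had 2, 3 and 2 reads in CFIm25 KO and 27 and 12 in control, while the 3′ UTR sites of the gene had 861, 694 and 580 reads in CFIm25 KO and 622 and 519 in control. The site thus took 0.232, 0.43 and 0.344% of the site and 3′ UTR reads in CFIm25 KO and 4.16 and 2.26% in control, with no overlap. The usage log2 difference was -3.26 (SE 0.55, edgeR adjusted p 0.0204), and over 9 alternatives the adjusted p was 0.000329 to 0.297. The site passed the count filter only through the controls, where its reads were higher. With no filter beyond 1 read in each count, the edgeR adjusted p was 0.0149. The call was lost without control replicate 1 (adjusted p 0.185) and without CFIm25 KO replicate 2 (adjusted p 0.297). A further UBXN1 site, at chr11:62677926, had 93, 67 and 62 reads in CFIm25 KO and 61 and 55 in control, and its usage log2 difference was 0.03 (SE 0.35, edgeR adjusted p 0.986). The called site had 6 adenines in the 10 bases after it and no hexamer, and the part of internal priming in it was not tested.

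**Figure D4:**
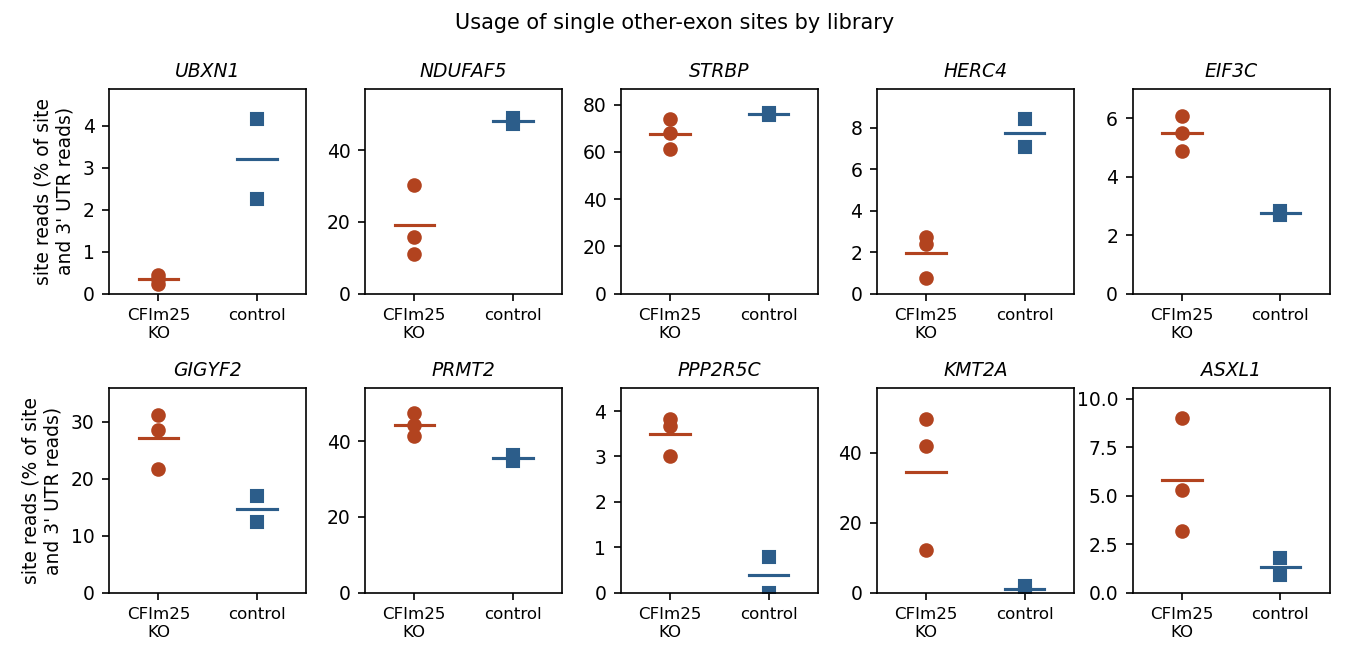
Reads of 10 single other-exon sites as percent of the site and 3′ UTR reads of the gene, by library, with a line at the group mean. UBXN1 has 0.232 to 0.43% in CFIm25 KO and 2.26 to 4.16% in control, and only UBXN1 passes the adjusted threshold of the usage test.

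The sites closest to the threshold in the usage test were read at low counts in most libraries, and HERC4, NDUFAF5, MYO6 and CNOT1 were named after their values were seen. HERC4 and CNOT1, like UBXN1, passed the count filter only through the controls, where they were higher. NDUFAF5 passed it through the controls and CFIm25 KO replicate 2. KMT2A and PPP2R5C were named because they had few reads over the controls. Both passed the count filter only through CFIm25 KO libraries, where their reads were higher. Without CFIm25 KO replicate 1, and without CFIm25 KO replicate 2, both failed the filter and were not tested. PPP2R5C, a regulatory subunit of protein phosphatase 2A, had 15, 16 and 10 reads in CFIm25 KO and 0 and 2 in control in a single-exon transcript at chr14:101824468, a usage log2 difference of 3.17 (SE 0.78, edgeR adjusted p 0.142). It was 2.15 without control replicate 1 and 6.71 without control replicate 2, and over 7 alternatives the adjusted p was 0.0275 to 0.834, past the threshold only with the replicate number as a block. HERC4, a HECT-type ubiquitin ligase gene, had 9, 2 and 9 reads in CFIm25 KO and 16 and 15 in control (-2.003, SE 0.51, edgeR adjusted p 0.158). KMT2A, a histone H3K4 methyltransferase, had 89, 69 and 8 reads in CFIm25 KO and 1 and 0 in control, 1 base before the end of coding exon 6 of 7. The KMT2A site took 49.7, 41.8 and 12.1% of the site and 3′ UTR reads in CFIm25 KO and 2 and 0% in control. Its usage difference was not called in all 5 libraries (5.58, edgeR adjusted p 0.191), and the adjusted p was 2.84e-10 to 0.314 over 7 alternatives. The KMT2A usage difference was 8.15 without control replicate 1 and 4.66 without control replicate 2. Without CFIm25 KO replicate 3 the site was called (edgeR adjusted p 4.6e-05). CFIm25 KO replicate 3 lay far below the other CFIm25 KO libraries at this site.

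Use of NDUFAF5's site was 10.9, 30.2 and 15.9% in CFIm25 KO and 49.1 and 47.4% in control (-2.06, SE 0.57, edgeR adjusted p 0.228). MYO6, a myosin that moves toward actin minus ends, had 16, 11 and 11 reads in CFIm25 KO and 33 and 18 in control (-1.49, edgeR adjusted p 0.238). CNOT1, the scaffold of the CCR4-NOT deadenylase, had 6, 7 and 7 reads in CFIm25 KO and 14 and 16 in control (-1.62, edgeR adjusted p 0.267). In these 3 genes every CFIm25 KO library was below both controls in reads, and none was called.

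**Figure D5:**
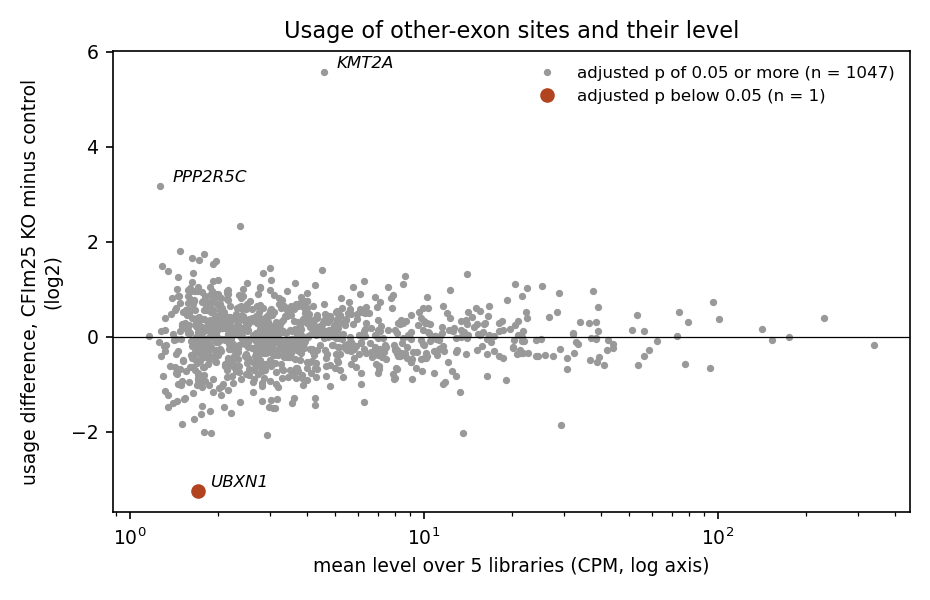
Usage log2 difference (CFIm25 KO over control, relative to the 3′ UTR sites of the gene) against mean CPM on a log axis for the 1048 other-exon sites tested, with the called site in UBXN1 marked. The differences lie on both sides of 0, and 39 sites are above 1 and 49 below -1.

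With all other-exon sites of a gene summed, 805 genes were tested against their summed 3′ UTR reads and 0 were called (0% of the genes) by edgeR, with 54 (6.71%) at an unadjusted p under 0.05, 23 higher in CFIm25 KO (2.86%) and 31 lower (3.85%). The median log2 difference was -0.0045. diffSpliceDGE, which has no library term, called 4, namely HSPD1, NPM1, EIF3C and PPP2R5C. The smallest adjusted p was 0.0895, at PPP2R5C and HERC4. Without CFIm25 KO replicate 3, 4 genes were called (PPP2R5C, KMT2A, HERC4 and FAAP20), without CFIm25 KO replicate 1, 2 (HERC4 and NPM1), and without CFIm25 KO replicate 2, 1 (USP48).

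Usage medians in the subclasses lay on both sides of 0, against 0.0004 over all exon and intron sites tested. They were 0.03 in A-rich and -0.04 in other sites, -0.0062 at transcript ends and -0.0039 away from them, and -0.03 with TGTA (274 tested) and -0.0027 without it (689 tested). The medians farthest from 0 were -0.26 in the 33 sites 5′ of the coding sequence, -0.26 in the 88 sites away from ends with a hexamer and no A-rich stretch, 0.19 in the 29 sites of nonsense-mediated decay transcripts and -0.16 in the 40 sites that could not be placed. Sites between 3′ UTR sites had -0.11 (67 tested) and sites downstream of them all 0.12. Sites with a hexamer had a median of -0.07, and of 255 tested 5 were higher (1.96%) and 14 lower (5.49%) with an unadjusted p under 0.05. Sites without one had a median of 0.02, with 27 higher (3.68%) and 23 lower (3.14%) of 733, and the background was 4.35% higher and 3.87% lower. Of the 65 downstream sites tested, 38 were higher and 27 lower in CFIm25 KO. These medians are descriptions, and no difference between subclasses was tested.

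Sites with at most 3 reads over 1 group were few. KMT2A, PPP2R5C and ASXL1 had 3 or fewer reads over the controls and NCL had 3 or fewer over CFIm25 KO. The sites were chosen for this pattern, so their reads are given here as a description. The tests of KMT2A and PPP2R5C given above are of sites chosen in this way. The reads of KMT2A and PPP2R5C are given above, and at KMT2A CFIm25 KO replicate 3 had 8 reads against 89 and 69 in the other CFIm25 KO libraries. ASXL1, a chromatin regulator, had 7, 15 and 10 reads in CFIm25 KO and 1 and 2 in control. NCL, for nucleolin, had 0, 0 and 0 reads in CFIm25 KO and 43 and 0 in control, so control replicate 1 alone carried the site.

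Gene lists gave few sites each, with no call at the site level or in usage. They were read beside all sites tested at the site level. Those had a median of 0.01 and, with an unadjusted p under 0.05, were higher at 4.12% and lower at 4%. The sites named from each list were picked by smallest site-level p, so they are its extremes and not typical members. The cleavage and polyadenylation factors held 9 sites in 5 genes, with 7 tested, none of them at an unadjusted p under 0.05 in either direction and a median log2 difference of -0.15. RBBP6 had 62, 27 and 61 reads in CFIm25 KO and 22 and 31 in control, and 41, 31 and 31 in CFIm25 KO and 30 and 32 in control at its other site. PCF11, which acts at the end of transcription, had 41, 18 and 28 reads in CFIm25 KO and 26 and 28 in control. The groups overlapped at the first RBBP6 site and at PCF11. The splicing regulators held 38 sites in 25 genes, with 33 tested. With an unadjusted p under 0.05 there was 1 higher and 1 lower site, beside a median of 0.02. SRSF11, a serine and arginine rich splicing factor, had 104, 87 and 109 reads in CFIm25 KO and 128 and 136 in control (-0.73, SE 0.22, edgeR adjusted p 0.372), and HNRNPR had 33, 35 and 25 reads in CFIm25 KO and 15 and 9 in control (1.02, SE 0.39, edgeR adjusted p 0.529).

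The core pluripotency genes held 13 sites in 6 genes, with 12 tested. Of these, 1 was lower and 0 were higher in CFIm25 KO by an unadjusted p under 0.05, beside a median of 0.25. L1TD1 held 7 of the 13 sites, and sites of 1 gene are not independent, so this median is weighted toward that gene. The lower one was in L1TD1 and had 15, 14 and 7 reads in CFIm25 KO and 17 and 25 in control (-1.17, edgeR adjusted p 0.496). Another L1TD1 site had 32, 31.2 and 47.3 CPM in CFIm25 KO and 32.1 and 27.3 CPM in control, where the groups overlapped (0.35, SE 0.21, edgeR adjusted p 0.713). The DNA repair genes held 14 sites in 9 genes, with 13 tested and 1 lower, PARP1, which had 226, 197 and 227 reads in CFIm25 KO and 256 and 267 in control (-0.60, SE 0.18, edgeR adjusted p 0.378). Their median was -0.02. The ribosomal protein genes held 22 sites, 15 tested, with 1 lower (RPL30, 18, 15 and 7 reads in CFIm25 KO and 21 and 18 in control) and a median of 0.09, and the ZNF-named zinc finger genes held 26 sites, 22 tested, with 1 higher (ZNF638), 1 lower (ZNF789) and a median of 0.04. ZNF638 had 30, 23 and 20 reads in CFIm25 KO and 12 and 5 in control (1.15, edgeR adjusted p 0.543), and ZNF789 had 10, 7 and 5 in CFIm25 KO and 14 and 14 in control (-1.28, edgeR adjusted p 0.569). The CLK, CDK, SRPK and DYRK kinases held 7 sites, 5 tested, none at an unadjusted p under 0.05, with a median of -0.08, and among them CDK11B had 112, 96 and 66 reads in CFIm25 KO and 126 and 25 in control, so the controls lay on both sides of the CFIm25 KO libraries.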

How the data were processed

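Libraries were made with the QuantSeq REV kit from 3 CFIm25 KO and 2 control H9 samples. Per the study's methods, the authors mapped the reads with Bowtie2 (1 alignment per read), counted the mapped 3′ end as the junction, discarded internal priming and merged nearby ends. The tools' versions and the internal priming rule are not given in the sources used here. The deposited table holds, per site, raw counts per library, and the authors' RPM, a depth-scaled read level, and an annotation; the deposited summed score (rpm_all, the authors' sum of the RPM values) is at least 5.00004 at every site. It also holds a ratio of mean RPM and a p-value per site from the authors' own comparison, which were not used. The labels name hg19 and GRCh37, but coordinates matched genes of GRCh38.

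Counts were tested with edgeR 4.0.16 (quasi-likelihood, TMM scaling, filterByExpr) in R 4.3.3, and calls are Benjamini-Hochberg adjusted p-values under 0.05; DESeq2 1.42.0 was an alternative. A share per library was compared by an exact two-sided permutation test over 10 splits, which cannot go below 0.1. Sequence was read from GENCODE v44 transcripts at positions given by GRCh38 exon coordinates, for 1399 of 1461 sites. The SE is the size of the log2 difference over the square root of the F statistic. The code was tested on simulated data. Named sites are those called, the 8 most abundant and the 8 with the largest share at 5 CPM or more. Also named are up to 4 per list by smallest site-level p, up to 5 genes with the most sites and sites nearly absent from 1 group. Sites with the smallest p at the site level or in usage were added after their values were seen. The members and lists were chosen with earlier results of these data known. The labels number the 5 libraries as replicates, and the study describes separate clones, so the spread is that between clones. The 2 control libraries differed by more than sampling noise (chi-square per degree of freedom 2.92 over 28780 sites).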

Additional observations from a re-analysis of the deposited data

How the results depend on the processing

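Among other-exon sites, the site-level count of 0 stayed 0 with DESeq2 size factors, no scaling and no filter, and was 2 with DESeq2's test and 0 to 10 when leaving out 1 library. The usage count of 1 stayed 1 with diffSpliceDGE, no filter or all other sites as the comparison. These calls were 0.0684 to 0.0954% of members, against 0.0428 to 0.0879% of the exon and intron sites tested. The usage count was 0 to 3 when leaving out 1 CFIm25 KO library. The 3 came without CFIm25 KO replicate 3 and were 0.286% of members, against 0.608% of exon and intron sites. The summed count of 0 was 4 with diffSpliceDGE and 0 to 4 when leaving out 1 library. Where 1 library was left in a group, it was assumed to vary like the others. The difference in other-exon share (-0.14 points) was 0.0698 without control replicate 1 and 0.2039 without CFIm25 KO replicate 1, over a range of -0.4683 to 0.2039, and -0.22 for sites with at least 10 reads in every library. The intronic difference was 0.1395 without control replicate 1, 0.0608 without CFIm25 KO replicate 1 and 0.1156 without CFIm25 KO replicate 2, and ranged from -0.2009 to 0.1395. The log2 ratio was 0.0379 without CFIm25 KO replicate 1, over -0.0840 to 0.0379. The cause was not tested. Alternatives chosen after seeing the data, without A-rich sites and without sites at transcript ends, gave share differences of -0.19 and -0.10 and 0 summed calls each. The median site-level difference (-0.0073) ranged over -0.1116 to 0.0935 and the median usage difference (-0.0051) over -0.1466 to 0.1026, both changing sign when single libraries were left out. Of 244 alternatives for single sites, 219 kept the direction and side of the threshold, 23 moved past it and 2 fell below it, both for UBXN1 (adjusted p 0.185 and 0.297).

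With the replicate number as a block, which drops CFIm25 KO replicate 3 because no control shares its number, the site-level count was 21 (1.96%, against 2.66% of all sites), the usage count 8 (0.763%, against 1.19% of exon and intron sites) and the summed count 0. The numbers were not taken as pairing. The correlations of deviations were 0.072 and 0.031 for the 2 shared numbers, and 0.029 for CFIm25 KO replicate 3 with control replicate 2. With 2 controls the deviations of 1 mirror those of the other, so these values cannot decide whether a pairing exists. Over all sites tested, the site-level count was 20, against 55 with DESeq2, 656 with the block and 319 without CFIm25 KO replicate 3.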
